A study of Homo sapiens with 11 samples.

Results

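The FGF receptors and TACC3 were followed in RT4 cells as they moved from plastic to a cancer-remodeled extracellular matrix (crECM, Matrigel). All probes whose single gene symbol was FGFR1, FGFR2, FGFR3, FGFR4 or TACC3 were taken, which gave 4 probes, 1 each for 4 of the 5 genes, of 22464 probes on the array. FGFR2 had no probe with a single symbol and was not analysed here. RT4 is an established cell line from a human bladder papilloma, a low-grade growth of the urothelium. Of its 11 one-color (Cy3) arrays of long oligos, 2 were from cells grown on plastic (replicates 1 and 2) and 9 from cells layered onto solidified Matrigel in culture inserts after growth on plastic, with 1 array at each of 12 h and days 1, 2, 3, 4, 6, 7, 8 and 9. Both groups are the same untreated line kept in serum-containing medium. The 9 crECM arrays are time points rather than replicates, and nothing in the labels says that the 2 plastic arrays came from separate cultures. The title of plastic replicate 2 also carries the note "Matrigel next", which the labels do not explain. The p-values therefore measure only the spread between these arrays, which may in part be technical.

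FGF receptors are tyrosine kinases in the cell membrane. An FGF ligand, held by heparan sulfate or a klotho protein, joins receptors into pairs, and the activated kinase signals through FRS2, GRB2 and the RAS and MAP kinase pathway, which in turn switches on ETS-family factors and the feedback inhibitors of the Sprouty and DUSP families. FGFR3 is the receptor best known in papillary bladder tumors, where it is often mutated. TACC3 is a coiled-coil protein that, with clathrin and CKAP5, steadies the microtubules of the mitotic spindle. FGFR3 and TACC3 lie close to each other on chromosome 4, and fusions that join the FGFR3 kinase to the coiled coil of TACC3 occur in bladder cancer, RT4 being a line known to carry one. The positions of the probes within the transcripts are not given in the sources used here, so whether either probe reads the fused transcript was not tested.

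The promoters, the 250 bases before the start site from RefSeq on GRCh38.p14, are shown because the receptors differed in response and because FGFR3 and TACC3 neighbor each other. They were matched by symbol for 3 of the 4 genes. FGFR3 is at chr4:1793043-1793292, TACC3 at chr4:1720381-1720630 and the first of the FGFR4 starts at chr5:177086665-177086914, all on the plus strand. Capitals mark each GC box, GGGCGG on either strand.
FGFR3: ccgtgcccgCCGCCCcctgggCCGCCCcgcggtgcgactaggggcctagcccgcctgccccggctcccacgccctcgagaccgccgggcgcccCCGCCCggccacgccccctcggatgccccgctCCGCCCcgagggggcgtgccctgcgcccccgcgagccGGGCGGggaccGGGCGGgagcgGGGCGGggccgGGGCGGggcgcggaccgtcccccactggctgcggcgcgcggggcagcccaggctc
FGFR4: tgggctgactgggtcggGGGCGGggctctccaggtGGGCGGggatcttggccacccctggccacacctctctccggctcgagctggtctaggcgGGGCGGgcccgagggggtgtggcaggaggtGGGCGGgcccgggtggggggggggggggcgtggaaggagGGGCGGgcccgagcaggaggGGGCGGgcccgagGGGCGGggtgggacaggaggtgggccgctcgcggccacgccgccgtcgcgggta
TACC3: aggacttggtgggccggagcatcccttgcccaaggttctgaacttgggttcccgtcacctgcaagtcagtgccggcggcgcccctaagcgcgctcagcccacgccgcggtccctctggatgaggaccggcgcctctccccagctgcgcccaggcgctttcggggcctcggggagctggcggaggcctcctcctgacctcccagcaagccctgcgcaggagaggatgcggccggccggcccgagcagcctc
The FGFR3 promoter held 8 GC boxes at a GC content of 86.8%, and the FGFR4 promoter held 7 at 79.6%. The TACC3 promoter held none at 71.6%, and a second FGFR4 start at chr5:177089300-177089549 held none at 57.2%. Over 35116 promoters of the same length, 42.6% held at least 1 GC box. CCAAT on either strand, found in 32.0% of all promoters, was in none of these 4, nor were TGANTCA (6.57%) and TTTGAA (13.3%). CACGTG, found in 6.34% of all promoters, had 1 match, before the second FGFR4 start, and the NF-κB motif, found in 9.96%, had 1 match at the first FGFR4 start and 1 at TACC3. The FGFR1 promoter was not among those matched, and which FGFR4 start RT4 uses is not known here. A link between these motifs and the changes on crECM was not tested.

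Each value is the log10 of the signal over zero in noise SDs, brought to a common scale across arrays by a robust regression. On that scale 0.48 is 3 SD. The study calls a gene expressed from 3 SD, a level it set before the regression. After the regression a value no longer counts the noise SDs of its own array. TACC3 on plastic replicate 2 was at 22.6 SD on the common scale but 2.79 SD above the noise mode by raw intensity. Signals in SD below are on the common scale unless raw intensity is named. A value at or below the zero point was deposited as the minimum of its array, shared by between 1175 and 2651 probes, so values at the minimum have no size and no order. Values below 0 that are not at the minimum lie between 0 and 1 SD, inside the noise. The 2 plastic arrays were dimmer (raw medians of 162 and 140.45) than the 9 crECM arrays (224 to 482), and the 12 h and day 7 arrays had the lowest of the crECM medians, 224 and 250. Substrate and array brightness cannot be told apart. Of 19 urothelial and epithelial markers, the mean was above 3 SD for 18 on plastic and 15 on crECM. Leukocyte markers were above 3 SD for 9 of 10 on both, with a summed level of 222 to 229 SD on plastic and 224 to 259 SD on crECM, and fibroblast markers for 9 and 8 of 11, at 261 to 269 SD and 219 to 266 SD, with VIM under 3 SD on both. Endothelial markers were above it for 3 and 4 of 5, at 84.1 to 85.3 SD and 90.6 to 117 SD, with PECAM1 under 3 SD on both. In a single cell line, a value above 3 SD is therefore not by itself a sign that a gene is expressed, and the part of this signal in the results was not tested.

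In the deposited values FGFR1 and FGFR4 rose from near or within the noise on plastic to above 3 SD on every crECM array. In those values FGFR3 stayed near the noise, and TACC3 was well above it on both. By raw intensity TACC3 on plastic replicate 2 stood 2.79 SD above the noise mode and FGFR1 on day 7 stood 2.10 SD above it. The 3 SD line of the deposited values was also passed by 9 of 10 leukocyte markers on each substrate. Whether FGFR1 or FGFR4 is expressed was therefore not tested. Of the 4 probes, 2 rose and none fell at an adjusted p under 0.05 by limma, against 22.8% of 21480 tested probes called higher and 22.4% called lower, 45.2% in all. Both FGFR1 and FGFR4 met the criteria of the study for an off-on gene, a mean log10 value below 0 on plastic and above 1 on crECM, which 3.97% of all probes met. No member lay below both plastic arrays on every crECM array, as 25.3% of all probes did, and no member was on-off, a class that held 0.41% of all probes.

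**Figure D1:**
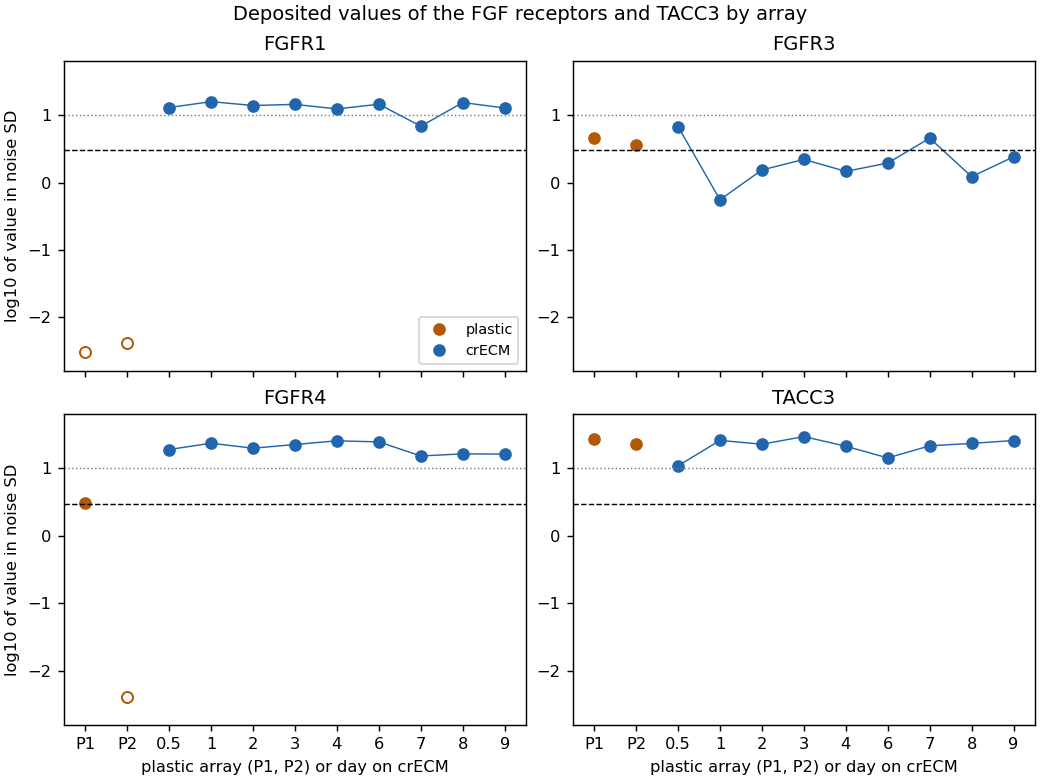
Deposited log10 values of the 4 probes on each array. The y axis is the log10 of the signal in noise SD on the common scale. The x axis shows plastic arrays P1 and P2, then days on crECM, evenly spaced, with 0.5 for 12 h. Open points are at the minimum of the array, the dashed line is 3 SD and the dotted line is the off-on threshold of 1. FGFR1 and FGFR4 lie above 3 SD on all 9 crECM arrays, FGFR3 crosses the line only at 12 h and day 7, and TACC3 is above it throughout.

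FGFR1, a receptor usually associated with mesenchymal cells, was at the array minimum on both plastic arrays, −2.51 and −2.39. On crECM its log10 value was 1.11 at 12 h, 1.20 on day 1, 1.14 on day 2, 1.16 on day 3, 1.09 on day 4, 1.16 on day 6, 0.83 on day 7, 1.19 on day 8 and 1.10 on day 9. All crECM arrays were thus above both plastic arrays, as for 21.5% of all probes, and day 7 was the one low day. In SD units these values were between 6.83 and 15.8. On the scale of the deposited values FGFR1 rose at least 4.29-fold. Its log2 change was 2.10 ± 0.27 (SE, 2 and 9 arrays; adjusted p = 9.5e-05 by limma). Values under 3 SD are set to 3 SD, so a fold against such arrays is a lower bound, on that scale only. Both plastic arrays of FGFR1 are set to that floor, so they add no spread to its SE and p. Both plastic levels are known only to be at or below the zero point, as for the 8.8% of all probes at the minimum on both.

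FGFR4, an epithelial receptor that with KLB answers FGF19, was at 0.48 on plastic replicate 1, just at the 3 SD line, and at the minimum of −2.39 on replicate 2. On crECM its log10 values were 1.28 at 12 h, 1.37 on day 1, 1.30 on day 2, 1.35 on day 3, 1.41 on day 4, 1.39 on day 6, 1.18 on day 7, 1.22 on day 8 and 1.21 on day 9. The groups did not overlap, and the 3 lowest crECM values were those of days 7, 8 and 9. On the scale of the deposited values FGFR4 rose at least 6.64-fold. The log2 change of FGFR4 was 2.73 ± 0.23 (SE, 2 and 9 arrays; adjusted p = 2.2e-06 by limma). With the floor the plastic arrays had an SD of only 0.011 on the log2 scale, so they add almost no spread to that SE and p. Its place among the off-on genes rests on plastic replicate 2, since replicate 1 alone has a mean of 0.48, which is not below 0.

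FGFR3, the receptor of papillary urothelial tumors, was at 0.66 and 0.55 on plastic. On crECM it was at 0.83 at 12 h, −0.26 on day 1, 0.19 on day 2, 0.34 on day 3, 0.17 on day 4, 0.29 on day 6, 0.66 on day 7, 0.09 on day 8 and 0.38 on day 9. The groups overlapped, and only the 12 h and day 7 arrays of crECM were above 3 SD, with 6.76 and 4.55 SD against 4.57 and 3.55 SD on plastic. Its log2 change was −0.23 ± 0.29 (SE, 2 and 9 arrays; adjusted p = 0.54 by limma), in which 7 of the 9 crECM arrays are set to 3 SD. On the raw intensities FGFR3 measured 21.1 and 11.9 on plastic against 61.4 to 111 on crECM, which is never more than 2.14 SD above the mode of the noise peak of its array, so that no level above noise was detectable on any array in that reading.

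TACC3 was at 1.43 and 1.35 on plastic. On crECM it was at 1.04 at 12 h, 1.41 on day 1, 1.36 on day 2, 1.47 on day 3, 1.33 on day 4, 1.15 on day 6, 1.33 on day 7, 1.37 on day 8 and 1.41 on day 9. The plastic values lay inside the crECM range, 27.0 and 22.6 SD against 10.9 to 29.6 SD, and like 72.1% of all probes TACC3 was above 3 SD on all 11 arrays. Its log2 change was −0.24 ± 0.32 (SE, 2 and 9 arrays; adjusted p = 0.56 by limma). The raw intensities, 224 and 154 on plastic and 127 to 570 on crECM, were above the noise mode by at least 2.79 SD on every array.

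**Figure D2:**
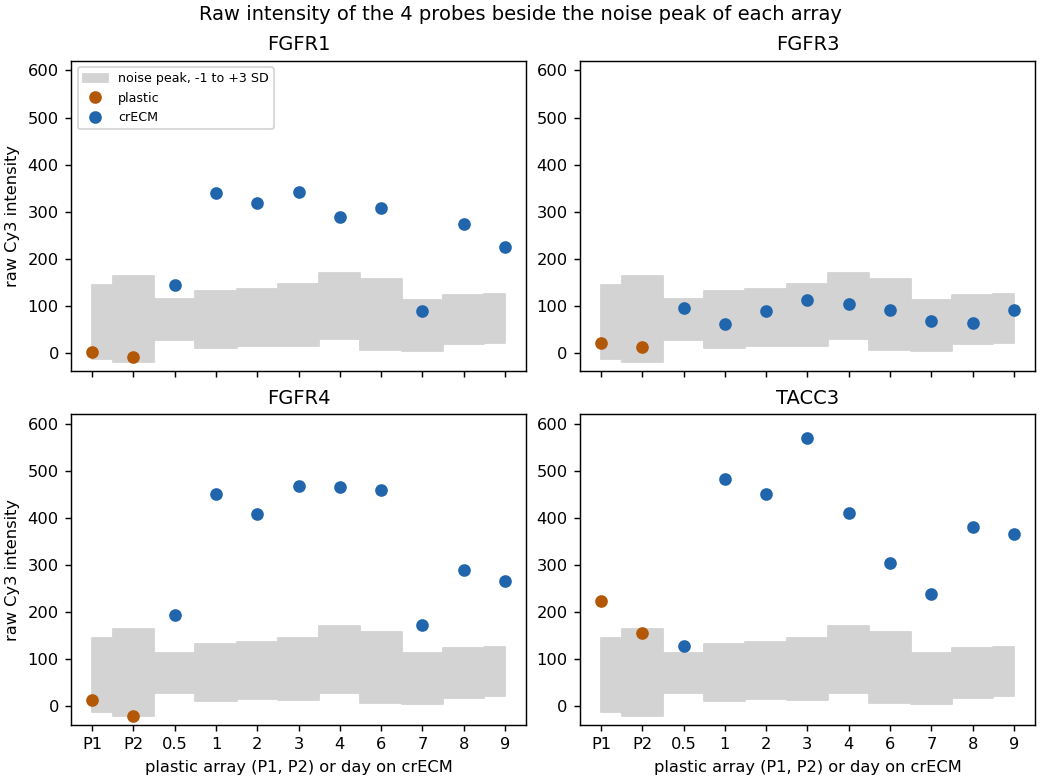
Raw Cy3 intensity (y axis) of the 4 probes on each array (x axis as before), before any normalization. The grey band runs from 1 SD below to 3 SD above the mode of the noise peak of that array. FGFR3 lies in the band on all 11 arrays, FGFR1 lies in it on plastic and on day 7, FGFR4 lies in or just below it on plastic only, and TACC3 lies in it on plastic replicate 2.

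The rank of each probe within its own array depends on neither the noise peak nor the regression. FGFR1 stood at percentiles 9.24 and 8.41 on plastic and at 20.4 to 30.1 on crECM, with a median of 26.7. FGFR4 stood at percentiles 13.6 and 6.42 on plastic and at 29.5 to 58.0 on crECM, with a median of 40.2. In rank, too, every crECM array was above both plastic arrays for these 2 receptors, as for 18.3% of all probes. FGFR3 stood at 16.6 and 15.5 on plastic and at 10.8 to 18.9 on crECM, and TACC3 at 62.1 and 53.0 against 24.3 to 70.4. Both overlapped between the groups. In the two-sided exact permutation test over all 55 choices of 2 of the 11 arrays, p was 0.0364, the smallest it can give, for FGFR1 and for FGFR4, both on the deposited values and on the ranks. It was 0.22 for FGFR3 and 0.51 for TACC3 on the deposited values, and 0.33 and 0.40 on the ranks. With values rebuilt from the raw intensities, both plastic values of FGFR3 were at the minimum and its p was 0.0364 as well, with the crECM arrays higher.

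**Figure D3:**
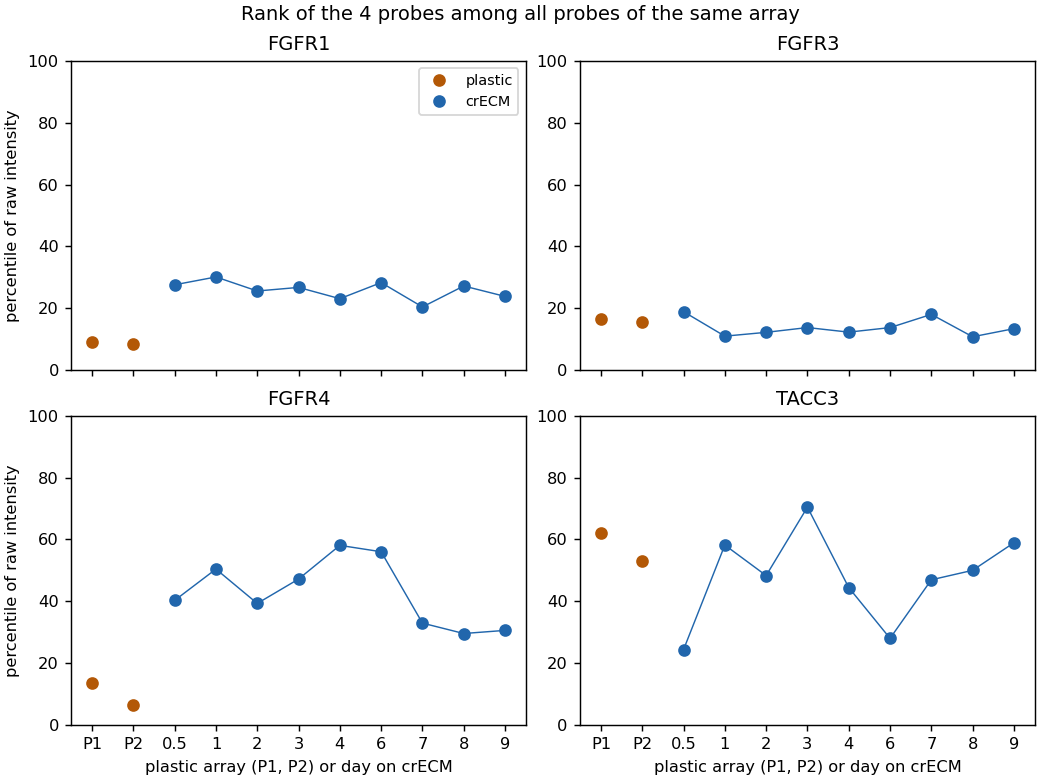
Percentile of the raw intensity of each probe among the 22464 probes of the same array (y axis, 0 to 100) on the plastic arrays P1 and P2 and the days on crECM (x axis). FGFR1 and FGFR4 are higher on every crECM array than on either plastic array, and FGFR3 and TACC3 overlap. The 12 h array holds the highest rank of FGFR3 and the lowest of TACC3.

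The processing set the size of the rise of both receptors. With the floor at 3 SD, FGFR1 was at it on both plastic arrays and FGFR4 at or just above it, so a fall could hardly show. The shared direction across these settings is therefore no test of the rise. With values rebuilt from the raw intensities, FGFR1 rose 0.89 ± 0.26 on the log2 scale (adjusted p = 0.011) and FGFR4 rose 1.47 ± 0.22 (adjusted p = 0.00013), at least 1.85-fold and 2.76-fold. With quantile normalization FGFR1 rose 0.93 ± 0.15 and FGFR4 1.51 ± 0.20, at least 1.90-fold and 2.84-fold. In neither reading was FGFR1 or FGFR4 still an off-on gene, since the crECM means were below 1. The direction of TACC3 depended on the scale. Its log2 change was −0.24 with the deposited values, 0.17 with the rebuilt values and 1.35 without regression (adjusted p = 0.0062 by limma). Without regression the median probe moved by 1.28 and FGFR1 by at least 1.16.

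**Figure D4:**
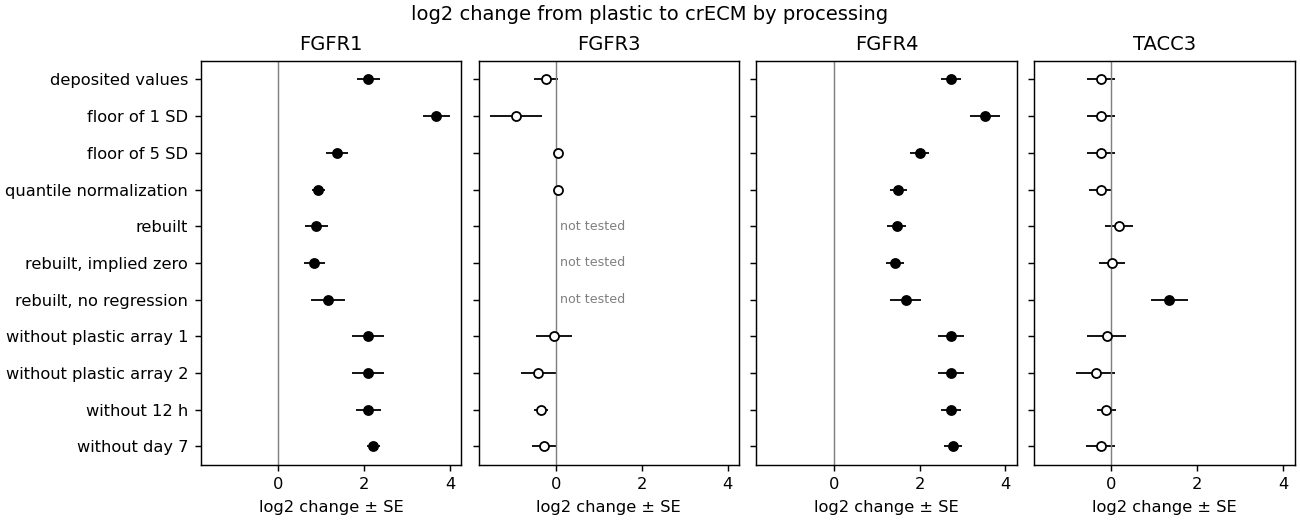
log2 change from plastic to crECM with its SE (x axis, limma) of the 4 genes under each way of processing (y axis). Filled points have an adjusted p under 0.05. FGFR1 and FGFR4 are filled and above 0 in every row shown, from 0.84 to 3.69 and from 1.42 to 3.52, and TACC3 is filled only without regression.

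Over the 9 days on crECM no member showed a trend that passed the test. From the lowest to the highest day, FGFR1 ran day 7, 4, 9, 12 h, 2, 3, 6, 8 and 1, and 1 of the 8 gaps between neighbors, that above day 7, was over the SD of 0.11 within the groups (log10). FGFR4 ran day 7, 9, 8, 12 h, 2, 3, 1, 6 and 4, with no gap over that SD. FGFR3 ran day 1, 8, 4, 2, 6, 3, 9, 7 and 12 h with 3 gaps over its SD, although the 7 days below day 7 all lie under 3 SD, where an order is one of noise. TACC3 ran 12 h, day 6, 4, 7, 2, 8, 9, 1 and 3 with 1. The log2 change per doubling of the day was −0.07 ± 0.09 for FGFR1, −0.15 ± 0.09 for FGFR3, −0.07 ± 0.07 for FGFR4 and 0.13 ± 0.10 for TACC3. None passed (adjusted p from 0.75 to 0.94 by limma), and 0.00466% of all probes, 1 probe, did.

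The 12 h array held the highest FGFR3 value and the lowest TACC3 value on crECM. For TACC3 day 6 was the next lowest, and the largest gap lay between day 6 and day 4, not above 12 h. FGFR3 was at least 2.14-fold higher at 12 h than on days 1 to 9, a log2 difference of 1.10 ± 0.21 (adjusted p = 0.021 by limma), where 3.54% of all probes were higher, 2.69% were lower and 6.23% differed. With a floor of 1 SD the difference was 1.88 and the call was lost. Every array of days 1 to 9 but that of day 7 lies at the 3 SD floor for FGFR3, which makes the SE small. By raw intensity FGFR3 was only 2.14 SD above the noise mode at 12 h, and 1.98 SD on day 3. With rebuilt values FGFR3 had too little signal to be tested. TACC3 was 2.08-fold lower at 12 h, a log2 difference of −1.06 ± 0.32 that did not pass (adjusted p = 0.11), but that passed with rebuilt values (−1.21, adjusted p = 0.039). FGFR1 (0.01 ± 0.40) and FGFR4 (−0.08 ± 0.31) did not differ by more than their errors. With each other day set against the rest, the one call among the members was FGFR1 on day 7, 2.04-fold lower (−1.03 ± 0.17, adjusted p = 0.029), where 1.4% of all probes differed, against 0.298% to 1.78% on the days other than 12 h and day 7. Each of these contrasts sets a single array against 8 and assumes that it varies like them, and 12 h and day 7 are the 2 dimmest crECM arrays. The part of array brightness in these differences was not tested.

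The relative SD over the 11 arrays, the measure the study uses for hypervariable genes, was 54.1% for FGFR1, 66.5% for FGFR3, 49.7% for FGFR4 and 24.5% for TACC3. The first 3 exceeded a threshold of 30.1% whichever array was left out. Of the 20138 probes counted as expressed, 23.5% did so. The study looks for such genes among those over 5 SD. FGFR3 averaged 4.03 SD on plastic and, with the floor at 3 SD, 3.44 SD on crECM, so that share is no background for FGFR3. Over the crECM arrays alone the relative SD was 20.1%, 77.2%, 19.2% and 26.9% in the same order. FGFR1 and FGFR4 thus varied between plastic and crECM, and FGFR3, near the noise, varied among the days. Over the 9 crECM arrays none of the 6 pairs of members was correlated past an adjusted p of 0.05. With the floor at 3 SD, which sets 7 of the 9 FGFR3 values to 3 SD, the largest Pearson r was −0.70 between FGFR3 and TACC3 (permutation p = 0.056, adjusted p = 0.31; Spearman rho = −0.55, permutation p = 0.14, adjusted p = 0.44). Without 12 h and day 7 every FGFR3 value was at the floor and no r could be had, so the floored relation rests on those 2 arrays. With no floor it was −0.57, and 0.04 without day 1 and 12 h, and the largest was −0.59 between FGFR1 and FGFR3 (permutation p = 0.13, adjusted p = 0.26). For the other pairs with the floor r ran from −0.45 to 0.51.

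The probes whose values over the 11 arrays were most like each member were found among 16529 tested probes of other genes with 1 symbol. For FGFR1 they were FKBP11 (r = 0.990), SPTBN1 (0.989) and FAM20C (0.987), and for FGFR4 they were LINC00662 (0.994), DGKG (0.994) and PRRT1 (0.990). An r over 0.9 was reached by 3.96% and 5.64% of the probes. All of these probes share the step between plastic and crECM. For FGFR3 they were XPC (0.961), MROH9 (0.953) and LRIG1 (0.948), and for TACC3 SPCS2 (0.934), PLPP3 (0.932) and TMEM181 (0.926), where 0.0726% and 0.0303% of the probes reached 0.9. All these r use values with the floor at 3 SD. For FGFR3 every crECM value but those of 12 h and day 7 lies at that floor, so its matches rest on those arrays and the plastic ones. These r are descriptions over arrays that share their brightness and scaling.

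In the gene order of GRCh38.p14 no protein-coding gene lies between TACC3 and FGFR3. TMEM129, on the TACC3 side, had a log2 change of −0.05 ± 0.10 (adjusted p = 0.72 by limma), and LETM1, a mitochondrial protein on the FGFR3 side, of 0.38 ± 0.27 (adjusted p = 0.28). The genes one place further out both fell. SLBP, which binds the stem-loop of histone mRNAs, was at 5.39 SD on plastic and under 3 SD on all 9 crECM arrays (−0.84 ± 0.04, adjusted p = 1.7e-08), where the SE is small because the crECM group lies wholly at the floor. Its raw intensities were 20.5 and 25.7 on plastic and 21.5 to 51.4 on crECM, within the noise, and with rebuilt values it had too little signal to be tested. NSD2, a histone methyltransferase, fell by 0.57 ± 0.18 (adjusted p = 0.023), and its call was lost with rebuilt values (−0.14, adjusted p = 0.56).

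The genes around the receptors moved in both directions. With 1 probe per gene, 24.2% of 14517 genes rose and 20.1% fell by limma, with a median log2 change of 0.09. Of the 22 FGF ligands tested, 5 rose and 6 fell, with a median of −0.06. FGF8, which patterns the embryo, was at the minimum on both plastic arrays and at 8.42 to 17.8 SD on crECM, at least 4.29-fold higher (2.10 ± 0.30, and 0.87 with rebuilt values). FGF9, a ligand of FGFR3, rose 3.04-fold from 6.51 and 10.8 SD to 22.9 to 30.1 SD, and FGF4 rose 1.56-fold. The ligands that fell most were FGF20, FGF11 and FGF14, of which the last 2 stay inside the cell. Their plastic values were 4.42 to 8.84 SD and all their crECM values were under 3 SD, so the falls of at least 2.08, 1.98 and 1.97-fold lie close to the noise, and with rebuilt values none of the 3 could be tested.

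Among the co-receptors and binding proteins, 6 of 15 rose and 1 fell, with a median of 0.51. NCAM1, an adhesion molecule that can bind FGF receptors, rose at least 7.24-fold (a log2 change of 2.86, and 2.07 with rebuilt values). The probe used was at 6.37 SD on plastic replicate 1, at the minimum on replicate 2 and at 25.9 to 59.4 SD on crECM. The other NCAM1 probe rose by only 1.18 on the log2 scale (adjusted p = 0.0021 by limma). FLRT1, a membrane partner of the receptors, rose at least 3.69-fold, and SDC3, a heparan sulfate proteoglycan, rose at least 3.49-fold, both from the minimum on both plastic arrays. The gene that fell was FGFRL1, the decoy receptor that lacks a kinase, from 31.5 and 36.3 SD to 16.1 to 26.4 SD (−0.78 ± 0.16, adjusted p = 0.0023 by limma). With rebuilt values FLRT1 and SDC3 changed by 0.68 and 0.63 on the log2 scale and missed the threshold (adjusted p = 0.051 and 0.074).

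Of the adaptors and effectors, 4 of 22 rose and 4 fell, with a median of 0.11. GRB2, the adaptor that brings SOS to the receptor complex, rose 3.38-fold from 10.4 and 11.6 SD to 20.5 to 68.7 SD (1.76 ± 0.36, adjusted p = 0.002 by limma). The kinases MAP2K2 and MAP2K1, which act upstream of ERK, rose 1.97-fold and 1.70-fold. GAB1, a docking protein that couples the complex to PI3-kinase, fell at least 4.32-fold from 22.5 and 29.2 SD to 1.74 to 10.9 SD (a log2 change of −2.11, and −1.25 with rebuilt values), and without plastic replicate 2 its adjusted p was 0.060. The adaptors NCK1 and GRB14 fell at least 2.24-fold and 1.39-fold and were under 3 SD on every crECM array. Neither had enough signal to be tested with rebuilt values, nor GRB14 with quantile normalization, and with a floor of 5 SD the adjusted p of GRB14 was 1. PLCG1, the phospholipase that binds the receptor tail, had a log2 change of −0.14 (adjusted p = 0.41) and MAPK3, which is ERK1, of 1.18 (adjusted p = 0.26, and 0.016 by eBayes without trend). FRS2 had no probe with a single symbol.

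Of the feedback inhibitors and target genes, 4 of 19 rose and 6 fell, with a median of −0.16. In all, 6 were called with quantile normalization, 6 without plastic replicate 1 and 5 without replicate 2. Of all probes, 6920 of 20665, 6736 of 21480 and 5708 of 21480 were called in these settings. DUSP4, a nuclear phosphatase of MAP kinases, rose at least 4.21-fold from the minimum on both plastic arrays (a log2 change of 2.07, and 0.87 with rebuilt values), MYC rose 2.45-fold, and SPRY4, a Sprouty inhibitor, rose 1.87-fold. The call of SPRY4 was lost with quantile normalization (adjusted p = 0.099), and without plastic replicate 2 the adjusted p was 0.059 for SPRY4 and 0.066 for MYC. ETV4, an ETS factor used as a readout of FGF signaling, fell at least 3.18-fold (−1.67 ± 0.56, adjusted p = 0.031), but its adjusted p was 0.35 with rebuilt values, 0.15 without plastic replicate 1 and 0.19 without replicate 2. ETV5, of the same family, fell by 0.53 on the log2 scale, EGR1, an immediate early factor, fell 1.73-fold, and IL17RD, which inhibits FGF receptors, fell 1.57-fold with an adjusted p of 0.0498 that 14 alternatives took past 0.05. DUSP6, the cytoplasmic ERK phosphatase, had a log2 change of −0.16 (adjusted p = 0.37), and SPRY2 was under 3 SD on all arrays and was not tested.

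Of the TACC family and the spindle partners of TACC3, 1 of 20 rose and 2 fell, 15% against 44.3% of all genes, with a median of 0.06. The count depended on the scale, with 10 genes called with rebuilt values and 5 with quantile normalization. So did that of all probes, with 10568 of 19352 and 6920 of 20665 called in these settings. AURKA, the kinase that lets TACC3 bind clathrin, fell 1.56-fold from 44.8 and 45.3 SD to 23.3 to 34.2 SD (−0.64 ± 0.15, adjusted p = 0.0044 by limma), and without plastic replicate 2 its adjusted p was 0.053. CLTC, the clathrin heavy chain, fell 1.54-fold (−0.63 ± 0.13, adjusted p = 0.0026). TTK, a kinase of the spindle checkpoint and the one gene of the list that rose, changed by 0.48 ± 0.17 (adjusted p = 0.037), and its call was lost in 9 of 20 alternatives, each of which left out 1 array, including either plastic array. It is named after its value was seen. CKAP5, a microtubule polymerase, changed by 0.37 (adjusted p = 0.25), TACC2 by −0.14 (adjusted p = 0.66) and TACC1 by 0.22 (adjusted p = 0.47), while the dimmer of the TACC1 probes rose by 1.76 (adjusted p = 6.5e-05). With rebuilt values CKAP5 (0.83, adjusted p = 0.0086) and TACC1 (0.78, adjusted p = 0.0066) were called higher, and CKAP5 was also called without the day 6 array (0.48, adjusted p = 0.025). As this is bulk RNA, fewer dividing cells and less RNA per cell cannot be told apart.

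**Figure D5:**
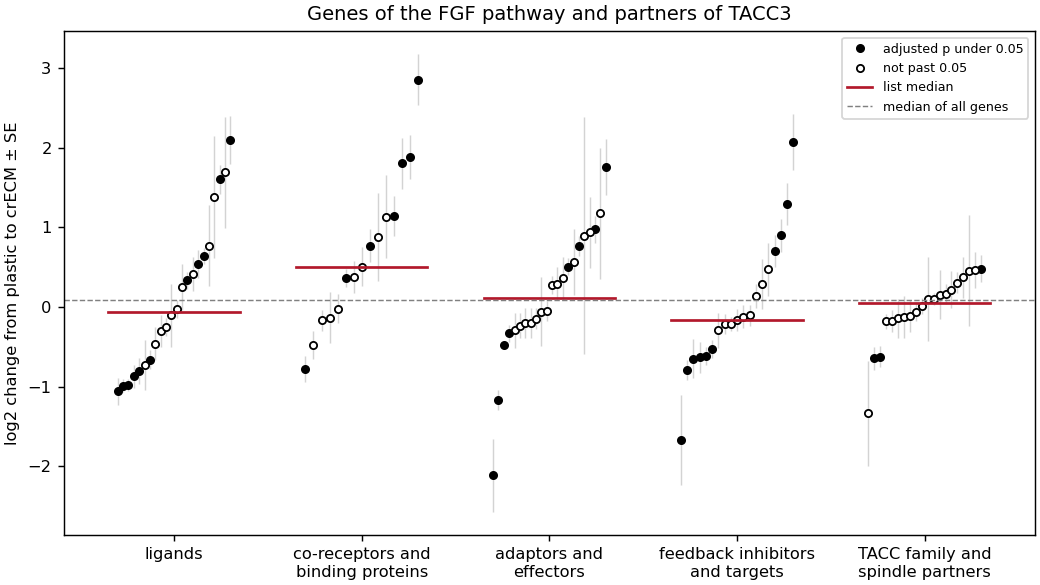
log2 change from plastic to crECM with its SE (y axis, limma) of each tested gene of 5 lists (x axis), 1 probe per gene, ordered by size within a list. Filled points have an adjusted p under 0.05, red lines are list medians, between −0.16 and 0.51, and the dashed line is the median of all genes, 0.09. The TACC and spindle list has 3 filled points of 20.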

How the data were processed

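Cy3-labeled cDNA of RT4 cells on plastic (2 arrays) or crECM (9 arrays) was measured on spotted arrays. Per the labels, the authors divided the signal over zero by the SD of the noise, converted it to log10 and brought the arrays to a common scale by a robust regression. The log10 table and the raw intensity of each array, both deposited, were used. Of 22464 probes, 17043 had 1 gene symbol, 172 had several and 5249 had none, and 16952 were matched by gene identifier to GRCh38.p14.

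The deposited values were converted to log2 with a floor at 3 SD. The model of limma 3.58.1 (R 4.3.3; lmFit, eBayes with trend) was then fitted to the 21480 probes above 3 SD on at least 2 arrays, with Benjamini-Hochberg adjustment over all of them. For lists, the probe with the highest mean stood for its gene. The fit was tested on simulated data. Python 3.11.15 with scipy 1.17.1 was used for exact permutation tests. A group that lies wholly at the floor has no spread, so its SE is small.

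The members, lists and rules were chosen with earlier results of these data known. All member probes were named, as were the genes of the FGF pathway given whatever their values, up to 3 genes of each list in each direction with the largest change among those past an adjusted p of 0.05 with all crECM arrays on one side of both plastic arrays, and the 3 probes most like each member. Alternatives were floors of 1 and 5 SD, no filter, values rebuilt from the raw intensities (noise peak as the mode of a kernel density) with and without regression, quantile normalization, array weights, no trend and leaving out each array. Chosen after seeing the data were a zero point implied by the deposited minimum, each day against the rest, and ranks. The number of arrays limits the precision.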

Additional observations from a re-analysis of the deposited data

Results flagged for a closer look

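Of 17 named genes and members examined over the 9 crECM arrays, 4 had 1 array far from the others. A nominal rate gives about 0.85. The genes share the same arrays, so whether 4 exceeds that rate was not tested. FGFR1 was lowest on day 7, with a gap to the next array of 0.702 of its range. MAPK3 was lowest at 12 h (0.521), CKAP5 was lowest on day 6 (0.531) and TACC2 was highest on day 9 (0.651).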

How the results depend on the processing

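FGFR1 and FGFR4 were called higher on crECM under all 20 alternatives, at log2 changes of 0.84 to 3.69 and 1.42 to 3.52. Their plastic values at or near the floor left little room for another direction. Without regression FGFR1 changed by at least 1.16 and FGFR4 by at least 1.68, where the median probe moved by 1.28. With rebuilt values they changed by at least 0.89 and 1.47, where the median probe moved by 0.41. No setting but regression removed gave a call for TACC3, and FGFR3 was not called in any setting that tested it. Leaving out 1 array at a time gave log2 changes of 2.06 to 2.21 for FGFR1, 2.69 to 2.78 for FGFR4, −0.41 to −0.05 for FGFR3 and −0.37 to −0.11 for TACC3. For FGFR3 the sign turned with a floor of 5 SD (0.048) and with quantile normalization (0.053), and with rebuilt values it had too little signal to be tested. For TACC3 it turned with rebuilt values (0.17), with the implied zero point (0.011) and without regression (1.35, adjusted p = 0.0062). The median change of all probes was 0.06 in the deposited values, 0.41 in rebuilt values, 0.28 with the implied zero point and 1.28 without regression, and the share of calls that were higher was 50.4%, 78.4%, 72.0% and 99.7%. The cause was not tested.

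The 12 h difference was 1.88 (adjusted p = 0.16) for FGFR3 with a floor of 1 SD, and with rebuilt values −0.21 for FGFR1 and −1.21 (adjusted p = 0.039) for TACC3. Without the 12 h array the change per doubling of the day turned to 0.055 for FGFR3 and −0.087 for TACC3. The r of FGFR4 and TACC3 was 0.14 with rebuilt values. In the permutation test on rebuilt values the difference was 1.99 for FGFR3 (exact p = 0.0364) and 0.052 for TACC3 (exact p = 0.62).

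With rebuilt values and with quantile normalization, the mean log10 value on plastic was −2.01 and −2.04 for FGFR1, −2.01 and 0.38 for FGFR3, and 0.88 and 1.03 for TACC3. On crECM it was 0.74 and 0.76 for FGFR1, 0.92 and 0.93 for FGFR4, and 0.93 and 0.95 for TACC3. Relative SDs with rebuilt values were 80.8% for FGFR3, 53.9% for FGFR4 and 26.6% for TACC3, and over crECM alone 20.1% for FGFR1, 77.2% for FGFR3, 19.2% for FGFR4 and 26.9% for TACC3.

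The number of probes called was 9716 of 21480 tested. It became 16136 of 19532 without regression, 10568 of 19352 with rebuilt values and 9283 of 19338 with the implied zero point. With quantile normalization it was 6920 of 20665. With 1 array left out it was 5708 to 10697 of 21480, the lowest without plastic replicate 2. The list counts below move beside these. Genes called among feedback inhibitors and targets were 10, and 6 with quantile normalization, 17 without regression and 5 to 10 with 1 array left out. Those of the TACC and spindle list were 3, and 5 with quantile normalization, 10 with rebuilt values, 8 with the implied zero point, 18 without regression and 1 to 4 with 1 array left out. Without regression there were 14 co-receptors and 15 adaptors.

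Of 28 other named genes called, 16 kept direction and call with both rebuilt values and quantile normalization. Over all alternatives, 486 of 540 of their values kept both, 45 lost the call and 9 turned. The 20 others could not be tested, those of FGF11, FGF14, NCK1 and SLBP with rebuilt values of any kind, and of FGF20 and GRB14 with these and with quantile normalization. All 9 turned without regression, to 0.64 for FGFRL1, 0.022 for GAB1, 0.40 for ETV4, 0.55 for EGR1, 0.81 for IL17RD, 0.48 for AURKA, 0.42 for CLTC, 0.45 for ETV5 and 1.10 for NSD2. Of those not called, CKAP5 gained a call in 4 alternatives, TACC1 in 3, and MAPK3 and LETM1 in 1 each. PLCG1 turned to 0.29 with rebuilt values, 0.12 with the implied zero point and 1.51 without regression, DUSP6 to 0.12, 0.017 and 1.27, and TMEM129 to 0.24, 0.13 and 1.38, the last also to 0.0018 with quantile normalization. TACC2 turned to 0.073 with rebuilt values and 1.17 without regression, and LETM1 to −0.035 with rebuilt values. No paired analysis was possible because the crECM arrays carry no replicate numbers. With signal near background, FGFR3 limits every statement made from it.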
